A study of Mus musculus with 6 samples.

Results

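The 9 genes described here encode the proteins that release calcium from the endoplasmic reticulum and pump it back: the ryanodine receptors Ryr1, Ryr2 and Ryr3, the inositol 1,4,5-trisphosphate (IP3) receptors Itpr1, Itpr2 and Itpr3, and the sarco/endoplasmic reticulum calcium ATPases (SERCA) Atp2a1, Atp2a2 and Atp2a3. They were taken by gene symbol, and they are 9 of the 24421 symbols of the count table. Ryr1 was chosen by its measured fall after neomycin in these same samples, so its values are a description with no test. The other 8 genes were taken as its relatives by gene family and by their role at the same store.

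The study cultured cochlear explants from mice at postnatal day 2, labelled WT, to follow damage and self-repair of hair cells (HCs), the mechanosensory cells of the organ of Corti. Neomycin, an aminoglycoside antibiotic that is toxic to HCs, was given at 1 mM for 6 h after 12 h of culture, after which the explants stayed 5 days in culture in 10 μM EdU, a thymidine analogue that marks DNA synthesis. There were 3 control and 3 neomycin samples, separated by the treatment label, while the growth text, which names neomycin, is the same for all 6. Each sample was RNA from 6 to 8 cochleae, so it averages over animals and over all cell types that the explant still held. The stria vascularis anlage, modiolus and tectorial membrane were removed for culture in the study's methods.

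The libraries held 50471116 to 66068108 counts. At that depth 1 count was worth 0.0145 to 0.0192 CPM, the count relative to the library's total, scaled by the TMM method. All 9 genes passed the filter on low counts, although Ryr3 did so with 3 to 17 counts per library. Of the 15988 genes tested with edgeR's quasi-likelihood test, 6.6% were called lower and 2.24% higher in the neomycin group, where a call needs a fold change over 1.5 and a Benjamini-Hochberg adjusted p under 0.05. The median over the genes tested stood at -0.004 on the log2 scale, neomycin minus control as throughout. The libraries separate into their labelled groups by the HC markers, which are given with the other cell types after the channels and pumps.

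Both channel families open to let calcium leave the endoplasmic reticulum. Ryanodine receptors open on calcium itself, or in skeletal muscle on contact with a voltage sensor, and IP3 receptors open on IP3 made by phospholipase C below surface receptors. SERCA pumps use ATP to refill the store, and store-operated channels at the surface replace what is lost. In HCs calcium from such stores has been described near the synaptic pole, in outer HCs beside the cisternae that line the lateral wall and face the efferent synapses, and IP3 receptors carry the calcium waves of the supporting cells (SCs) around them.

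The coding stretches of 8 members below show how alike they are where they do the same work, and how far their bases still differ, which is what lets reads be assigned to 1 of them. They are from the GENCODE reference transcripts (release M21, build GRCm38), written 5′ to 3′ in the sense of the gene. In the channels the capitals mark the codons of the selectivity filter in the pore. In the pumps they mark the codons of the motif that holds the phosphorylated aspartate. Each stretch lies inside 1 coding exon.
Ryr1: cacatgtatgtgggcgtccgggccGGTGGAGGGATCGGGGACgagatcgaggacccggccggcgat
Ryr2: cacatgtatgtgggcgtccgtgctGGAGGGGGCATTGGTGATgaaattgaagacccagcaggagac
Ryr3: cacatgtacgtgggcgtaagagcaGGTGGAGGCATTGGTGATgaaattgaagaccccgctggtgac
Itpr1: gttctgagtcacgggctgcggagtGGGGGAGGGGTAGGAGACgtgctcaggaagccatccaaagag
Itpr2: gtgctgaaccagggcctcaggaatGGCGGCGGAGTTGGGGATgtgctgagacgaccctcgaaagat
Itpr3: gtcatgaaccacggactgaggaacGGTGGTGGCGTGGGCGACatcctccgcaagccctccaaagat
Atp2a1: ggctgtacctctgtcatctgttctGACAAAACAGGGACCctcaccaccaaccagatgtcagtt
Atp2a3: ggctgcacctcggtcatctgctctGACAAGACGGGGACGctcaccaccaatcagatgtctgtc

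The stretch of Ryr1 is at chr7:29005574-29005639 on the minus strand, in exon 105 of 109 of its transcript, and that of Atp2a3 is at chr11:72975582-72975644 on the plus strand, in exon 8 of 22. Over the whole reading frames the translated ryanodine receptors shared 67.3 to 70.1% of aligned residues, the IP3 receptors 65.1 to 70.7% and the pumps 75.4 to 84.5%. Sequences of 50 bases shared between 2 members of a family were found only for Atp2a1 and Atp2a3. They shared 4, counted at every position, so these may overlap in a single stretch. Few reads of that length could therefore fit 2 members equally well.

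Ryr1 and Atp2a3 fell furthest of the 9, and their RefSeq promoter windows (GRCm38.p6) are shown for that reason. Capitals mark the GC box GGGCGG on either strand, and adjacent boxes may overlap. It is a common motif, present in 35.7% of all 32851 promoter windows of this length. The window of Ryr1 is chr7:29125102-29125401 (minus strand) and that of Atp2a3 is chr11:72960919-72961218 (plus strand).
Ryr1: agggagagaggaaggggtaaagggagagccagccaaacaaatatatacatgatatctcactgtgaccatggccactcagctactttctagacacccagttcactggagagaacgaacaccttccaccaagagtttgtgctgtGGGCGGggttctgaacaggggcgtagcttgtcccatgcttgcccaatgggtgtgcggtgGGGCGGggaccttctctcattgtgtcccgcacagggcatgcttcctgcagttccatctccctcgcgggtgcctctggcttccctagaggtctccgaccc
Atp2a3: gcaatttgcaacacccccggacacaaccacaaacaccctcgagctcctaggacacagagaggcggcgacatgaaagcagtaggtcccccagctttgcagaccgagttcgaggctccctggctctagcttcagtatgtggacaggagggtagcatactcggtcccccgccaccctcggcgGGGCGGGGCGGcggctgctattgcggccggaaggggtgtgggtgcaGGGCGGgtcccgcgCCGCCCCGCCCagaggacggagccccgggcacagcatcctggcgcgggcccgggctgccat

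The GC box occurred 2 times in the Ryr1 window and 5 times in that of Atp2a3. The E-box CAGCTG, a sequence bound by basic helix-loop-helix factors and present in 16.3% of all windows, occurred in neither, and CAGATG, present in 17.2%, was in neither as well. Among the other members with a window, Ryr2 held 2 GC boxes, Itpr2 held 5, Itpr3 held 1 and Atp2a1 held 0. Whether the boxes bear on the change of a gene after neomycin was not tested. The base composition of the 2 windows differed, at 56.7% GC for Ryr1 and 68.3% for Atp2a3.

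Ryr1, the calcium release channel best known from skeletal muscle, was almost lost from the neomycin samples. It lies at chr7:29003344-29125179 on the minus strand. The control libraries held 351, 380 and 392 counts (5.09, 7.28 and 6.97 CPM), and the neomycin libraries held 17, 8 and 22 counts (0.320, 0.136 and 0.410 CPM). Every control sample lay far above every neomycin sample, and the 3 neomycin samples still held more than the floor of 3 counts. The mean went from 6.45 ± 1.19 to 0.288 ± 0.140 CPM (SD, n = 3 each), a log2 fold change of -4.49 (SE 0.32), or 22.4-fold. It ranked 2 from the lowest fold change among all genes tested, which is the value it was chosen for. Neomycin replicate 2 was the lowest of the 6 libraries, and leaving samples out one at a time gave fold changes between -4.83 and -4.13. Its count has a limit, since Ryr1 shares 864 exonic bases with Gm26604 and 50 with Gm44408, both on the other strand. Neither gene has a row in the count table, and whether counting used strand is not given in the sources used here. Smaller overlaps of this kind exist for Itpr3 (233 bases with Itpr3os), Itpr1 (181 with Gm44101 and 108 with Gm44040) and Atp2a2 (83 with Gm43361).

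Ryr2, the ryanodine receptor of heart and many neurons, also fell. It lies at chr13:11553102-12106945 on the minus strand. Its counts were 215, 200 and 175 in the control libraries and 85, 88 and 71 in the neomycin libraries. In CPM these were 3.12, 3.83 and 3.11 against 1.60, 1.49 and 1.32, so the groups did not overlap. The mean decreased from 3.35 ± 0.415 to 1.47 ± 0.140 CPM (SD, n = 3 each), with a log2 fold change of -1.19 (SE 0.22, 95% interval -1.66 to -0.71, adjusted p = 0.00223 by edgeR), or 2.28-fold lower. With a correction for gene length, described with the IP3 receptors, the fold change was -0.85 and Ryr2 was still called.

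Ryr3, a broadly expressed receptor of low abundance, was close to the limit of detection. It lies at chr2:112631355-113217096 on the minus strand. Its counts were 3, 6 and 13 in the control libraries and 5, 17 and 16 in the neomycin libraries. The groups overlapped, and the log2 fold change was 0.83 with a 95% interval from -0.69 to 2.36 (edgeR, adjusted p = 0.4). A change in either direction was therefore not detectable at this depth. Ryr3 also shares 916 exonic bases with Aven on the opposite strand, an apoptosis inhibitor with 396 to 541 counts in every library, so that some of these few reads may belong to Aven if strand was not used.

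**Figure D1:**
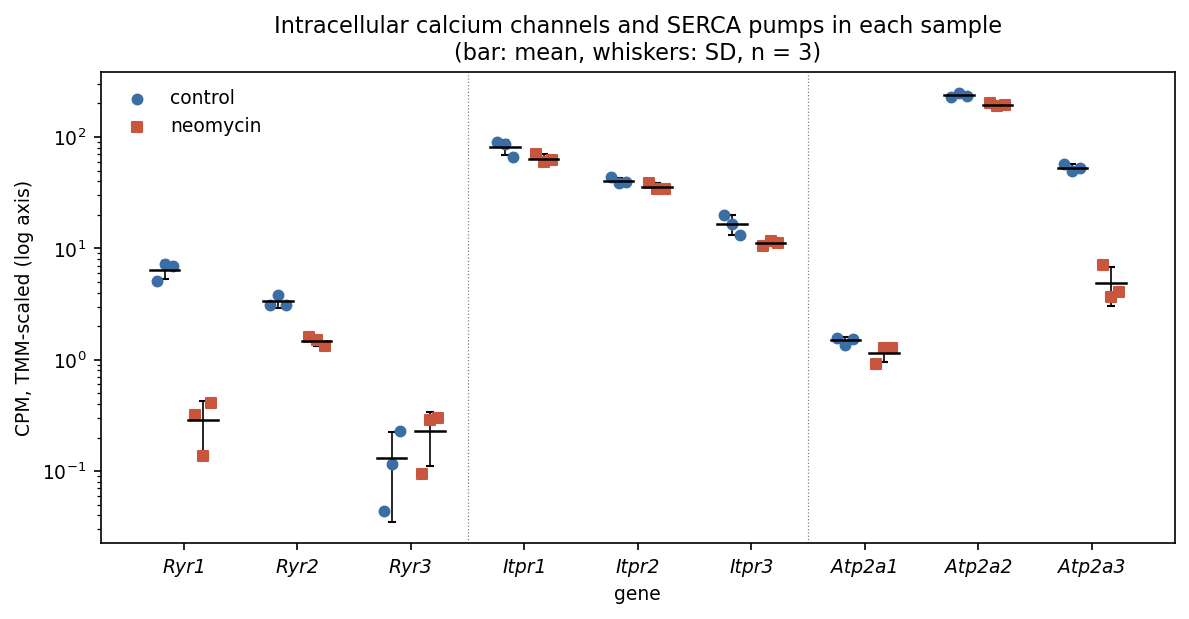
TMM-scaled CPM of the 9 genes in each sample on a log axis, with circles for control and squares for neomycin, bars for the mean and whiskers for the SD of 3 samples. Ryr1 falls from 5.09 to 7.28 CPM in the controls to 0.136 to 0.410 CPM after neomycin, Atp2a3 from 49.6 to 57.0 CPM to 3.68 to 7.02 CPM, and the other genes move far less.

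The make-up of the ryanodine receptor family changed with these values. To compare levels between genes, CPM was divided by the length of the exons of each gene, 21838 bases for Ryr1, 28790 for Ryr2 and 18977 for Ryr3. On that scale Ryr1 made up 67.8, 70.6 and 72.6% of the family's level in the control samples and 19.5, 8.48 and 23.3% in the neomycin samples. Ryr2 took 28.1% ± 3.46 in the controls and 67.3% ± 8.92 after neomycin (SD, n = 3 each), although its own level fell. Ryr1 was thus the leading ryanodine receptor in every control sample and Ryr2 in every neomycin sample. The summed level of the 3 receptors was 0.419 ± 0.0672 CPM per kb in the controls and 0.0763 ± 0.0037 CPM per kb after neomycin (SD, n = 3 each). As Ryr1 was chosen for its fall, these shares are a description.

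The IP3 receptors were far more abundant than the ryanodine receptors, and none of them passed the fold threshold. Itpr1, the receptor best known from Purkinje cells, lies at chr6:108213096-108551109 on the plus strand. It had 89.9, 86.5 and 66.6 CPM in the control samples and 70.5, 59.1 and 62.3 CPM in the neomycin samples. Control replicate 3 was below neomycin replicate 1, so the groups overlapped. The mean was 81.0 ± 12.6 CPM in the controls and 63.9 ± 5.88 CPM after neomycin (SD, n = 3 each), and Itpr1 fell by 0.34 on the log2 scale (SE 0.11, edgeR adjusted p = 0.0323), under the 1.5-fold threshold.

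Itpr2, the most IP3-sensitive receptor and the main one of many epithelia and glia, lies at chr6:146108299-146502223 on the minus strand. It had 43.3, 38.9 and 39.3 CPM in the controls and 39.0, 34.3 and 33.8 CPM after neomycin. The groups overlapped by a narrow margin, because neomycin replicate 1 was level with control replicate 2. The log2 fold change was -0.18 (95% interval -0.36 to -0.001, edgeR adjusted p = 0.12).

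Itpr3, the receptor of taste cells and many secretory epithelia, lies at chr17:27057304-27122223 on the plus strand. It had 19.8, 16.5 and 13.3 CPM in the controls and 10.4, 11.7 and 11.2 CPM after neomycin. All controls were above all neomycin samples, with control replicate 3 nearest to them. The mean went from 16.5 ± 3.25 to 11.1 ± 0.677 CPM (SD, n = 3 each), and Itpr3 fell by 0.58 on the log2 scale (SE 0.14, 95% interval -0.87 to -0.28, edgeR adjusted p = 0.00834). At 1.49-fold it stood just outside the fold threshold, and without control replicate 3 it was called, at -0.70 (edgeR, adjusted p = 0.00149).

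Long genes lay lower than most in the neomycin libraries, and this touches the small differences. The 1942 tested genes with over 9000 bases of exon lay at a median of -0.219 on the log2 scale, and the IP3 receptors, with 18319, 14802 and 9019 bases, are among them. With an offset that removes the trend of each library with exon length, the log2 fold change was -0.05 for Itpr1 (edgeR, adjusted p = 0.645), 0.07 for Itpr2 (adjusted p = 0.516) and -0.39 for Itpr3 (adjusted p = 0.031). The fall of Itpr1 was therefore lost and that of Itpr3 remained under the adjusted p threshold. The offset could also remove a change that long genes share for other reasons, which was not tested.

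Within the family the proportions moved by a few percentage points, and the difference of the shares was not tested. Per kb of exon Itpr1 was 49.1% ± 2.27 of the IP3 receptor level in the controls and 48.9% ± 1.67 after neomycin, Itpr2 30.7% ± 3.04 and 33.8% ± 0.754, and Itpr3 20.3% ± 1.47 and 17.3% ± 2.02 (SD, n = 3 each). The summed level was 8.99 ± 1.15 CPM per kb in the controls and 7.13 ± 0.434 CPM per kb after neomycin. In every sample the order was Itpr1, Itpr2, Itpr3.

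**Figure D2:**
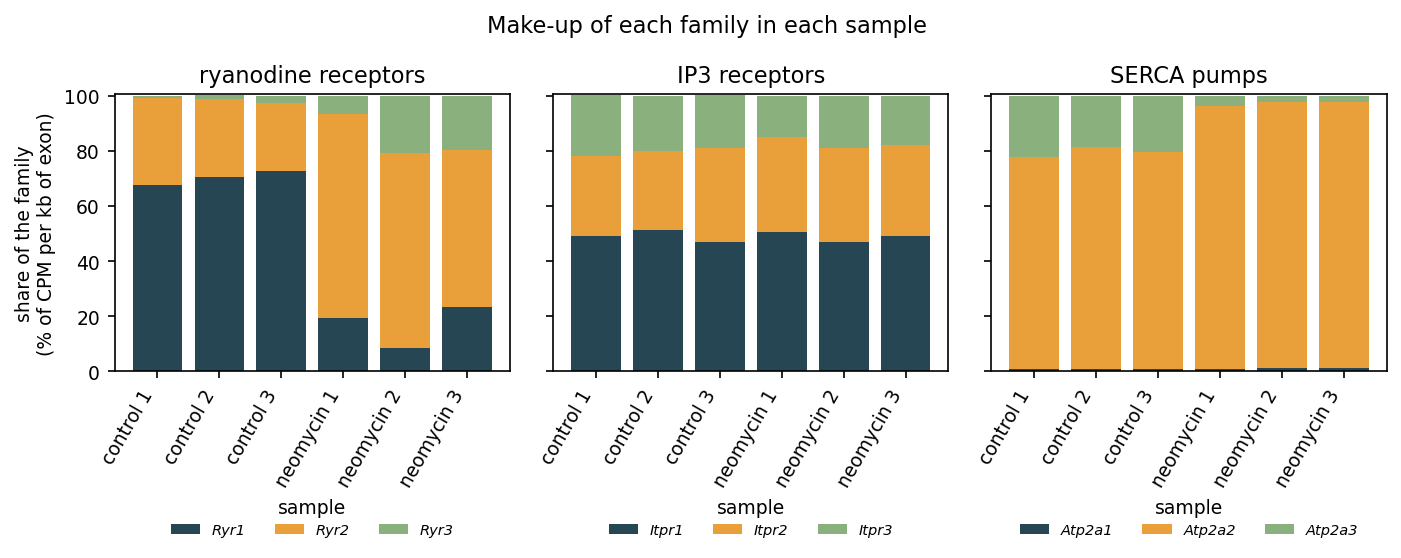
Share of each gene in the level of its family, as a percent of summed CPM per kb of exon, in each of the 6 samples. Ryr1 gives way to Ryr2 among the ryanodine receptors (67.8 to 72.6% against 8.48 to 23.3%), Atp2a3 drops out beside Atp2a2 among the pumps (18.6 to 22.1% against 2.16 to 3.8%), and the share of Itpr3 among the IP3 receptors is 19.0 to 21.9% against 15.1 to 19.0%.

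Atp2a3, the SERCA3 pump known from blood cells, endothelium and some epithelia, fell more than any other of the 8 relatives. It lies at chr11:72961169-72993044 on the plus strand. It had 3930, 2587 and 2964 counts in the control libraries and 373, 217 and 216 counts in the neomycin libraries. In CPM these were 57.0, 49.6 and 52.7 against 7.02, 3.68 and 4.02, so that the highest neomycin sample was far under the lowest control. The mean went from 53.1 ± 3.69 to 4.91 ± 1.84 CPM (SD, n = 3 each), with a log2 fold change of -3.44 (SE 0.19, 95% interval -3.85 to -3.03, edgeR adjusted p = 2.1e-07), or 10.8-fold lower. Its fold change ranked 14 from the lowest of all genes tested, and it ran from -3.79 to -3.27 over the 16 alternative settings.

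Atp2a2, the SERCA2 pump found in nearly every cell, was the most abundant of the 9 genes. It lies at chr5:122453513-122502225 on the minus strand. It had 228, 248 and 235 CPM in the controls and 203, 190 and 193 CPM after neomycin. The groups did not overlap, and the mean went from 237 ± 10.3 to 195 ± 6.96 CPM (SD, n = 3 each). Atp2a2 fell by 0.28 on the log2 scale (SE 0.07, edgeR adjusted p = 0.0126), under the fold threshold. With the length offset the value was -0.18 (adjusted p = 0.0566).

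Atp2a1, the SERCA1 pump of fast skeletal muscle, was low. It lies at chr7:126445858-126463108 on the minus strand. Its counts were 109, 71 and 86 in the control libraries and 49, 75 and 69 in the neomycin libraries, or 1.49 ± 0.115 and 1.16 ± 0.205 CPM (SD, n = 3 each). The log2 fold change was -0.36 with a 95% interval from -0.97 to 0.25 (edgeR, adjusted p = 0.358). Of its 3477 exonic bases 763 are shared on the opposite strand with Rabep2, an endosomal protein gene with 2794 to 3454 counts in every library, so that without strand part of its counts may be from Rabep2.

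Among the pumps Atp2a2 made up 78.8% ± 1.86 of the level per kb in the controls and 96.2% ± 0.693 after neomycin, while Atp2a3 made up 22.1, 18.6 and 20.4% in the controls and 3.8, 2.16 and 2.32% after neomycin. The summed SERCA level was 49.4 ± 1.00 CPM per kb in the controls and 33.3 ± 1.43 CPM per kb after neomycin (SD, n = 3 each). Atp2a3 accounted for more of this difference than the far more abundant Atp2a2, since it went from 10.1 to 0.929 CPM per kb and Atp2a2 from 39.0 to 32.1 CPM per kb.

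Across all 9 genes the order of control levels per kb of exon was Atp2a2 (39.0), Atp2a3 (10.1), Itpr1 (4.42), Itpr2 (2.74), Itpr3 (1.83), Atp2a1 (0.429), Ryr1 (0.295), Ryr2 (0.117) and Ryr3 (0.00685 CPM per kb). No 2 neighbours in this order overlapped in their 3 samples, although Atp2a1 and Ryr1 did when the length of the longest transcript was used. After neomycin Atp2a3 stood at 0.929 CPM per kb, behind Itpr3 at 1.23 with overlapping samples, and Ryr1 at 0.0132 overlapped with Ryr3 at 0.0120. Ryr1 was thus number 7 of the 9 in the controls and level with the lowest after neomycin.

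Of the 8 relatives of Ryr1, 2 were called lower (Ryr2 and Atp2a3) against 6.6% of all genes tested, and 0 were called higher against 2.24% (edgeR; at an unadjusted p under 0.05, 0 of the 8 were higher, and DESeq2 and limma-voom also called 0 higher). With the adjusted p alone 5 fell, Itpr1, Itpr3 and Atp2a2 in addition, against 16.1% of all genes. This count is not stable, since with the length offset 3 of the 8 fell (Ryr2, Itpr3 and Atp2a3). Itpr1 lost its adjusted p in 4 of 6 edgeR fits with a sample left out, those without control replicate 1 (adjusted p = 0.111), control replicate 2 (0.13), neomycin replicate 2 (0.143) and neomycin replicate 3 (0.0889). Atp2a2 lost it in 3 of 6, those without control replicate 2 (adjusted p = 0.0706), neomycin replicate 2 (0.0784) and neomycin replicate 3 (0.0536). For 5 of the 8, controls and neomycin samples did not overlap in CPM, a pattern that 43.5% of all genes tested showed in 1 direction or the other. The median log2 fold change of the 8 was -0.352 beside -0.004 over all genes.

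**Figure D3:**
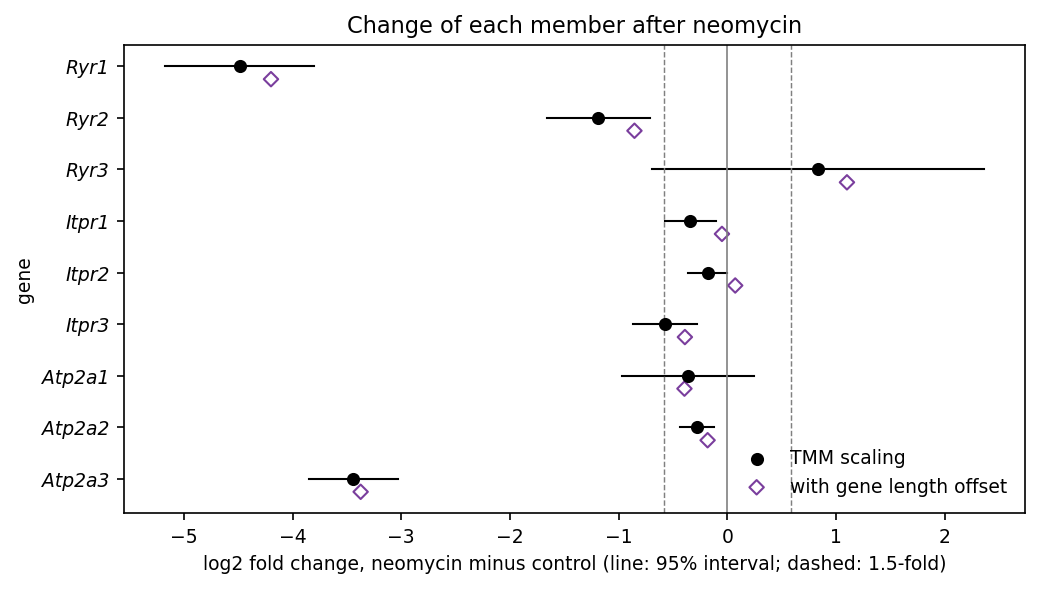
Log2 fold change of each gene, neomycin minus control, with its 95% interval from edgeR (filled circles and lines) and the value with the gene length offset (open diamonds), and dashed lines at 1.5-fold. Ryr1 at -4.49 and Atp2a3 at -3.44 stand apart, Ryr2 follows at -1.19, and the length offset moves Itpr1 and Itpr2 to near 0.

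The genes whose profiles were most like that of Ryr1 were sought among 14028 tested genes with a mean of at least 1 CPM. The measure was the root mean square distance between log2 CPM profiles, each centred on its mean over the 6 samples, so it is mostly a measure of the size of the difference between the groups. The nearest were A530016L24Rik (distance 0.398), Gpihbp1 (0.568), Slc26a5 (0.589), Dytn (0.615), Ocm (0.715), Tmc1 (0.745), Klhdc7b (0.758) and Plscr5 (0.791), while the median gene was at 2.256. Slc26a5 encodes prestin, the motor protein of outer HCs, Ocm encodes oncomodulin, the calcium buffer of outer HCs, and Tmc1 encodes the pore of the HC mechanotransduction channel. Gpihbp1 is instead a protein of capillary endothelium. Atp2a3 was at 0.651, with 4 genes nearer to Ryr1, and Ryr2 was at 1.692.

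**Figure D4:**
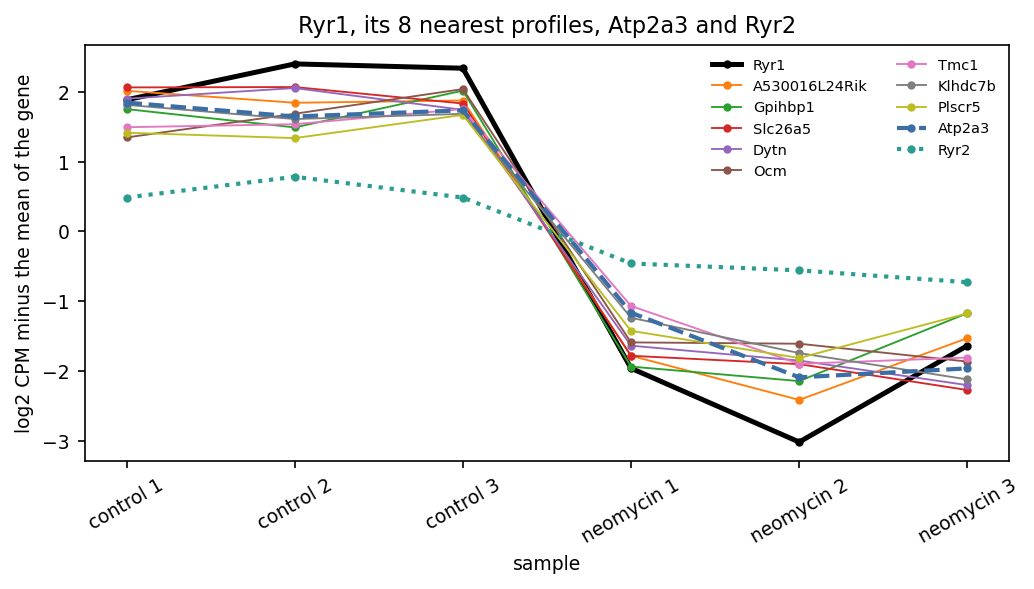
Log2 CPM minus the mean of each gene in the 6 samples for Ryr1 (thick line), its 8 nearest genes (thin lines), Atp2a3 (dashed) and Ryr2 (dotted), where lines join values of 1 gene and the samples have no order. Ryr1, Atp2a3 and the 8 genes show a like step between the groups, and that of Ryr2 is smaller.

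Cell type markers moved between the groups, and in these bulk samples fewer cells of a type and less RNA per cell cannot be told apart. All 20 general HC markers were tested and 19 were called lower, with a median log2 fold change of -1.48, and their summed level was 624 to 706 CPM in the controls and 262 to 300 CPM after neomycin. Of 8 outer HC markers 6 were called lower, with a median of -2.44 and sums of 575 to 734 and 250 to 283 CPM. Lbh, which was not called, held up the sum after neomycin, at 192 ± 13.7 CPM in the controls and 200 ± 10.3 CPM after neomycin (SD, n = 3 each). The range inside these lists was wide: Ocm was at -3.41, Otof, the calcium sensor of the HC synapse, at -2.34, Cib2 at -0.86 and Lbh at 0.06. Ryr1 at -4.49 was lower than every marker of both lists, whose lowest value was -3.99 for Slc26a5. Because Ryr1 was chosen for its large fall, its place below the markers is a description that follows from that choice. Atp2a3 at -3.44 was between Slc26a5 and Ocm, and Ryr2 at -1.19 was inside the range.

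Ryr1 and Atp2a1 are best known from muscle, and markers of skeletal muscle were at a low and similar summed level in both groups. Of 18 such markers, 10 were tested, 4 did not exceed 3 counts in any library, and of these 4 Myod1 and Pax7 were at 0 throughout. The sum was 13.8 to 14.4 CPM in the controls and 12.7 to 14.7 CPM after neomycin. Actn3, a fast-fibre alpha-actinin and the most abundant of them, was at 5.59 ± 1.03 and 5.68 ± 0.397 CPM (SD, n = 3 each), and the 1 marker that fell was Myh2, a fast myosin, by 1.21 on the log2 scale (edgeR, adjusted p = 0.0196). Cacna1s, the voltage sensor that Ryr1 touches in skeletal muscle, had at most 1 count in any library.

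Some endothelial and neuronal markers were lower after neomycin as well. Of 8 endothelial markers 6 were called lower, and the list had a median of -1.94. The 6 ran from -3.40 for Cldn5, beside -3.44 for Atp2a3, to -0.96 for Kdr, a VEGF receptor. Between them were Tie1 (-2.83), Pecam1 (-2.71), Cdh5 (-2.05) and Flt1 (-1.835). Tek (-0.21) was not called. Emcn, the most abundant of the list, was at 0.12 and was not called either. Its level kept the sum at 281 to 315 CPM in the controls and 267 to 317 CPM after neomycin. Of 10 neuronal markers 4 were called lower, with a median of -0.74 and sums of 199 to 288 and 186 to 204 CPM. Nefm, a neurofilament subunit, was at -0.89 and Syt1, a synaptic vesicle protein, rose by 0.37 (edgeR, adjusted p = 0.0346). The part of HC, endothelial or neuronal markers in the falls of Ryr1, Ryr2 and Atp2a3 was not tested.

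The other cell types had smaller median changes than the HC, endothelial and neuronal lists. In this paragraph a marker fell or rose by the adjusted p alone, as 16.1% and 12.9% of all genes did. With the fold threshold, 2 SC, 2 smooth muscle and pericyte and 1 mesenchyme markers were called lower, against 6.6% of all genes. Called higher were 1 Schwann cell and glia, 2 macrophage and leukocyte and 1 mesenchyme markers, against 2.24%. Of 14 SC markers 3 fell (Lfng, Prox1 and Fgfr3) and 1 rose (Gjb6, a connexin), with a median of 0.04 and sums of 2840 to 3140 and 2910 to 3450 CPM. Of 10 smooth muscle and pericyte markers 3 fell (Pdgfrb, Notch3 and Kcnj8) and 1 rose (Des), with a median of -0.38 and sums of 241 to 279 and 208 to 221 CPM. Of 9 Schwann cell and glia markers 1 fell (Mbp) and 1 rose (S100b), with a median of 0.04 and sums of 423 to 450 and 439 to 503 CPM. Of 10 macrophage and leukocyte markers 4 rose (Cd68, C1qa, C1qb and Lyz2) and 0 fell, with a median of 0.36, and their sums were 177 to 228 CPM in the controls and 240 to 290 CPM after neomycin. With the length offset C1qa (adjusted p = 0.0674), C1qb (adjusted p = 0.264), Lyz2 (adjusted p = 0.157) and Mbp (adjusted p = 0.351) no longer passed. Cd68 (0.318), Notch3 (-0.448) and Fgfr3 (-0.535) passed but were then under 1.5-fold. Other markers passed only with the offset in edgeR. Slc1a3 (0.27, adjusted p = 0.00841), Lgr5 (0.349, adjusted p = 0.00506) and Col1a2 (0.303, adjusted p = 0.0234) rose, and Acta2 fell (-0.535, adjusted p = 0.0224). Of 10 mesenchyme markers 3 fell (Col1a1, Col3a1 and Postn) and 2 rose, with a median of -0.08 and sums of 6350 to 6980 and 6660 to 6890 CPM. Genes named here beyond the 3 most abundant of a list were named after their values were seen.

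Around the members, 98 genes of calcium store handling were listed by role, of which 95 were in the table and 92 were tested. Of these, 7 were called lower against 6.6% of all genes and 3 were called higher against 2.24%, and with the adjusted p alone 15 fell (16.3%) and 10 rose (10.9%), against 16.1% and 12.9% of all genes. By these counts the store genes as a whole were near the background. Their median log2 fold change was -0.027. Most of the falls were in 1 list, that of IP3 production and IP3 receptor regulators.

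In that list 10 of 28 tested genes fell (35.7%, against 16.1% of all genes) and 0 rose with the adjusted p alone, and 5 were called lower, against 6.6% of all genes, with a median of -0.306. Plch2, a phospholipase C, went from 34.5 ± 1.63 to 16.9 ± 1.76 CPM (log2 fold change -1.03, edgeR adjusted p = 1.78e-05), and the phospholipases Plcb4 (-0.70) and Plce1 (-0.71) fell too, although with the length offset both were under 1.5-fold, at -0.53 and -0.44. Of the 3 kinases that turn IP3 into inositol tetrakisphosphate 2 fell: Itpkb went from 54.5 ± 6.7 to 28.1 ± 5.29 CPM (-0.96, adjusted p = 0.000283) and Itpka from 2.36 ± 0.182 to 0.925 ± 0.274 CPM (-1.35, adjusted p = 0.00485; SD, n = 3 for each). The third such kinase, Itpkc, was at 24.4 ± 0.854 and 22.9 ± 1.31 CPM with overlapping groups (-0.09, adjusted p = 0.457), and Inpp5a, a phosphatase that removes IP3, was at -0.04 (adjusted p = 0.743). Among the other phospholipases Plcg1 fell by 0.47 (adjusted p = 0.00306), while Plcb3 (-0.07), Plcd1 (0.09), Plcd3 (-0.02), Plcd4 (-0.03) and Plch1 (0.02) did not pass the test, so some enzymes that make or remove IP3 were lower and others did not pass. Ahcyl1, an inhibitor that binds the IP3 site of the receptor and the most abundant gene of the list, was at 205 ± 8.18 and 195 ± 4.07 CPM (-0.07, adjusted p = 0.476).

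Of 21 tested ryanodine receptor partners 3 fell (14.3%) and 3 rose (14.3%) with the adjusted p alone, against 16.1% and 12.9% of all genes. The median was -0.003, and by these counts the list was near the background. Homer2, a postsynaptic scaffold that binds both channel families, had 1932, 1641 and 1748 counts in the control libraries and 553, 567 and 625 in the neomycin libraries. Every control was thus far above every neomycin sample, and the log2 fold change was -1.52 (SE 0.10, edgeR adjusted p = 1.18e-06). Homer1 fell by 0.39, under the fold threshold, and with the length offset it did not pass (adjusted p = 0.185).

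The 3 partners that rose were Trdn, Jsrp1 and S100a1. Trdn, which encodes triadin, the anchor of calsequestrin at the ryanodine receptor, had 458, 240 and 267 counts in the control libraries and 445, 516 and 426 in the neomycin libraries. Its log2 fold change was 0.64 (edgeR, adjusted p = 0.0105), and Jsrp1, a protein of the same junction, rose by 0.61 (adjusted p = 0.0325). S100a1, a calcium-binding protein that acts on ryanodine receptors and SERCA, went from 1560 ± 216 to 2140 ± 126 CPM (0.46, adjusted p = 0.00887). S100a1 was under the fold threshold and so was not called. With the length offset Jsrp1 (adjusted p = 0.19) and S100a1 (adjusted p = 0.41) did not pass, and Trdn did (adjusted p = 0.00168).

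Of the 7 SERCA regulators listed, 4 were in the table and 2 were tested. Mrln, which encodes myoregulin, a muscle micropeptide that inhibits SERCA, had 72, 55 and 83 counts in the controls and 78, 155 and 122 after neomycin. The groups overlapped, and its call, with a log2 fold change of 0.83 and an edgeR adjusted p of 0.04998, stood at the edge of the threshold and was lost with the length offset (adjusted p = 0.168). Pln, phospholamban, had 5 to 18 counts per library and Sln, sarcolipin, had 0 in all. Tmx1, a thioredoxin of the reticulum, was at 93.8 ± 6.95 and 105 ± 0.884 CPM (SD, n = 3 each; adjusted p = 0.106).

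In the remaining 4 lists edgeR called 0 genes with the fold threshold, while with the adjusted p alone 2 of 41 fell (4.88%, against 16.1% of all genes) and 6 rose (14.6%, against 12.9%). Among the sensors and channels of store-operated entry, 1 of 7 fell, the channel Orai2 at -0.50, and the sensor Stim1 was at -0.13 (adjusted p = 0.363). Among 10 calcium-binding proteins of the lumen Casq1, the calsequestrin of skeletal muscle, fell by 0.50, while Calr, calreticulin, rose by 0.32 and Sdf4 by 0.30, and the median was 0.214. Of 7 leak and Golgi transport genes Tmco1 and Tmbim4 rose, and of 17 genes of mitochondrial uptake Smdt1 and Vdac3 rose, with 0 falls in either list. With the length offset Calr (adjusted p = 0.0577), Tmbim4 (adjusted p = 0.0799) and Smdt1 (adjusted p = 0.994) no longer passed. Mcu, the pore of the mitochondrial uniporter, was at 19.8 ± 1.00 and 17.9 ± 0.784 CPM (SD, n = 3 each; -0.14, adjusted p = 0.258).

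**Figure D5:**
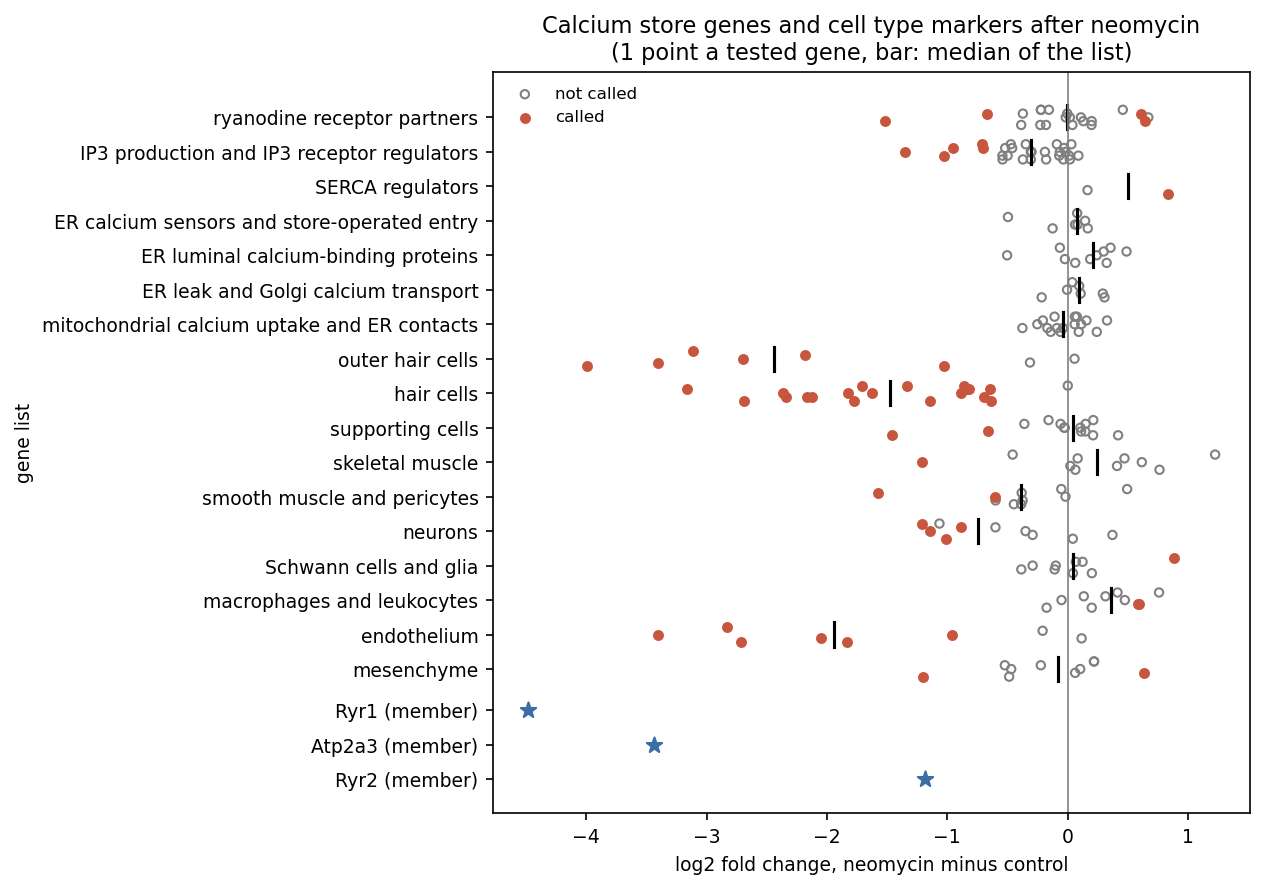
Log2 fold change, neomycin minus control, of each tested gene in the calcium store lists and the cell type marker lists, with filled points for genes called, open points for genes not called, a bar at the median of each list, and stars for Ryr1, Atp2a3 and Ryr2. The medians of the store lists run from -0.306 for IP3 production and regulators to 0.500 for the 2 tested SERCA regulators, and the HC, outer HC and endothelial lists lie lowest at medians of -1.48, -2.44 and -1.94.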

How the data were processed

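RNA of 3 control and 3 neomycin explant samples was sequenced by the study. Per the labels and the study's methods, reads were called with CASAVA 1.8, trimmed with Trimmomatic 0.23, aligned with HISAT2 to mm10 and counted per gene with HTSeq, and the authors deposited raw counts. Counting over strands and shared reads is not given in the sources used here.

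Counts were tested in R 4.3.3 with edgeR 4.0.16 (filterByExpr, TMM scaling, the quasi-likelihood test, p adjusted over every gene tested by Benjamini-Hochberg, threshold 0.05 and 1.5-fold). DESeq2 1.42.0, limma-voom (limma 3.58.1), other scalings and filters, a replicate block, a length offset (lowess span 0.3) and leaving out each sample were alternatives. The scripts were tested on simulated data. Profiles used a prior count of 2. Exon lengths and coordinates were from GENCODE M21, found for 99.2% of genes tested.

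The members, lists and tests were chosen with earlier results of these data known. Named genes were the members, called store genes with the 2 most abundant others of a list, the 8 nearest profiles, the 3 most abundant markers of a list and overlapping genes. Others were named after their values were seen. The labels do not say that samples came from separate cultures, so p-values measure the spread between these samples, which may be technical. A store gene and a sequence are not reported here.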

Additional observations from a re-analysis of the deposited data

How the results depend on the processing

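Of the relatives of Ryr1, 2 were called lower and 0 higher under all scalings, filters and tests tried, except that 3 were lower with library totals only, with control replicate 3 left out and with neomycin replicate 2 left out, where Itpr3 (-0.65, -0.70 and -0.62) passed the fold threshold, and 5 with no fold threshold. Leaving out single samples gave 2 to 3 lower and 0 higher. Ryr1 ran from -4.83 to -4.13 and Ryr2 from -1.26 to -0.85 over 16 alternatives. Itpr2 changed sign with the length offset, at 0.072 (edgeR, adjusted p = 0.516) and, with the replicate block as well, 0.074 (adjusted p = 0.431). The filter at 1 CPM in 3 samples removed Ryr3, which has no value there.

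Over all genes, no fold threshold gave 2571 lower and 2058 higher, library totals only 233 higher and an adjusted p under 0.01 gave 217 higher. Leaving out single samples gave 800 to 1159 lower and 237 to 513 higher, with 237 higher when control replicate 2 was left out. Of the store genes 15 were lower and 10 higher with no fold threshold, 0 were higher with library totals only, 1 with the length offset, 1 with the length offset and the replicate block, and 0 at an adjusted p under 0.01, and single samples left out gave 7 to 8 lower and 0 to 3 higher (0 without control replicate 2 and 1 each with neomycin replicate 2 or 3 left out). The cause was not tested. The deviations of same-numbered samples from their group means correlated at 0.165, 0.0264 and 0.0949 for numbers 1, 2 and 3. Between different numbers they correlated at 0.0325 at most, which numbers 1 and 3 exceeded. These values do not settle whether the numbers are pairs, and the main test did not use them as pairs. With the replicate number as a block 1089 genes were lower and 376 higher, and Ryr2 was at -1.19 (edgeR, adjusted p = 0.00196). The block changed no call of a member. By the adjusted p alone Itpr2, at -0.18, passed with the block (edgeR, adjusted p = 0.0371) and not without it (adjusted p = 0.12).

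Values per kb depend on the length used: with the longest transcript the control level was 0.420 for Ryr1, 0.1995 for Ryr2 and 8.21 CPM per kb for Itpr1. Differences of genes with under 20 counts per library, such as Ryr3, were limited by depth.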
